A study of Mus musculus with 4 samples.

Results

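The TRAV5 and TRAV8 families are variable (V) gene segments of the mouse T cell receptor α (TCRα) locus, each present as several similar copies. Clones were taken as members when the V segment listed first by the clone caller, with its allele removed, was a copy of TRAV5 or TRAV8. Of 189388 TCRα clones in 4 libraries, 10238 were members, 4239 of them TRAV5 and 5999 TRAV8. They used 8 of the 101 TRAV segments with reads.

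The libraries came from spleen CD4 T cells of young mice (25 days old on average), with 2 libraries from wild type (WT) mice and 2 from Tet2/3 DKO mice, and a genotype comparison therefore rests on 2 values per group. The Tet2/3 DKO mice (Tet2-/- Tet3 flx/flx CD4Cre) lack TET2 in the germline and lose TET3 where CD4-Cre is active, from the double positive stage of the thymus on. TET2 and TET3 are enzymes that oxidise 5-methylcytosine in DNA. The sorted cells expressed CD4 and TCRβ and excluded CD25+ cells and iNKT cells, which bind the CD1d tetramer loaded with αGalCer. The tables hold only TCR sequences, so the sort could not be checked against other marker genes. Between 172506 and 287799 TCRα reads per library were assigned to clones, and members held 7933 and 11492 reads in the WT libraries against 9651 and 13704 reads in the Tet2/3 DKO libraries. Reads carry no molecular identifiers, so the confidence intervals below (Wilson, 95%, unless another is named) cover counting error only. The second Tet2/3 DKO library stood apart from the others in V usage, with a chi-square per degree of freedom of 77.2 to 82.2 against the other 3 libraries, compared with 12.95 to 37.0 among those 3.

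A TCRα chain is made in the thymus by joining a V segment to a joining (J) segment and deleting the DNA between them. The J segments are numbered so that TRAJ58 lies near the V segments and TRAJ1 lies near the constant gene. A locus can rearrange again, with a V segment farther upstream joined to a J segment farther downstream, until the cell is selected or dies. The CDR3 is the stretch that spans the V-J junction and contacts the peptide, while CDR1 and CDR2 lie within the V segment. Copies with D or N in their name belong to duplicated blocks in the middle of the V cluster.

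RefSeq lists 14 Trav5 and Trav8 entries on chromosome 14 of GRCm38 (the assembly of mm10), 9 as V segments and 5 as pseudogenes. All 8 segments with clones matched a RefSeq V segment. From the far end of the cluster inward, TRAV5-1 lies at chr14:52622566-52623082, TRAV8D-1 at chr14:52778510-52778995, TRAV5D-4 at chr14:53001713-53002231, TRAV8D-2 at chr14:53042428-53042891, TRAV8N-2 at chr14:53345961-53346424, TRAV8-1 at chr14:53469756-53470231, TRAV5-4 at chr14:53704007-53704514 and TRAV8-2 at chr14:53738375-53738838. TRAV5N-4, at chr14:53312904-53313422, was never listed first, and all 921 TRAV5D-4 clones listed it with an equal score, so TRAV5D-4 here stands for either copy. No other member clone had a tied top hit, and 0 clones of other segments listed a member as a further hit.

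The CDR1 shows how the copies differ, and is printed for every copy with capitals where a base differs from the copy numbered 1 of its family.
TRAV5-1: gacagtgcctctgtctac
TRAV5-4: gacagtgcctcCAActac
TRAV5D-4: AacagtgcctcCAActac
TRAV8-1: acatccataactgcc
TRAV8D-1: acatccataactgcc
TRAV8-2: acTtAcaCaactgTT
TRAV8N-2: acTtAcaCaactgTT
TRAV8D-2: acTtATaCaactgTT

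Over the V part before the CDR3, TRAV8-1 and TRAV8D-1 differed at 3 of 264 bases (98.9% identity) and TRAV5-4 and TRAV5D-4 at 6 of 267 bases (97.8%). TRAV8-2 differed at 14 bases from TRAV8D-2 and at 14 bases from TRAV8N-2 (94.7% identity each), and TRAV8D-2 and TRAV8N-2 differed from each other at 23. TRAV5-1 stood farther from TRAV5-4, with 48 of 267 bases different. The V germline bases that open the CDR3, read from untrimmed clones, are given next because they set which junctions the copies can share, with capitals again marking differences from the copy numbered 1.
TRAV5-1: tgctcagcaagta
TRAV5-4: tgTGcTgcaagtG
TRAV5D-4: tgTGcTgcaagtG
TRAV8-1: tgtgctactgatg
TRAV8D-1: tgtgctactgatg
TRAV8-2: tgtgctactgatg
TRAV8N-2: tgtgctactgatg
TRAV8D-2: tgtgctacAgatg

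TRAV5-4 and TRAV5D-4 thus end alike, and so do TRAV8-1, TRAV8D-1, TRAV8-2 and TRAV8N-2, whereas TRAV8D-2 differs from these at 1 base.

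TRAV8 was used more than TRAV5, and neither family share separated the genotypes. TRAV5 held 1.83% and 2.11% of TCRα reads in the WT libraries against 1.90% and 1.74% in the Tet2/3 DKO libraries. TRAV8 held 2.77% and 3.20% in WT against 3.04% and 3.02% in Tet2/3 DKO. The groups overlapped for both families. The mean was 1.97% ± 0.202 (SD, n = 2) in WT and 1.82% ± 0.113 in Tet2/3 DKO for TRAV5, and the exact two-sided permutation p was 0.667. For TRAV8 it was 2.98% ± 0.300 (SD, n = 2) in WT and 3.03% ± 0.0192 in Tet2/3 DKO, with an exact permutation p of 1. With 2 libraries per genotype this test cannot give a p below 0.333.

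**Figure D1:**
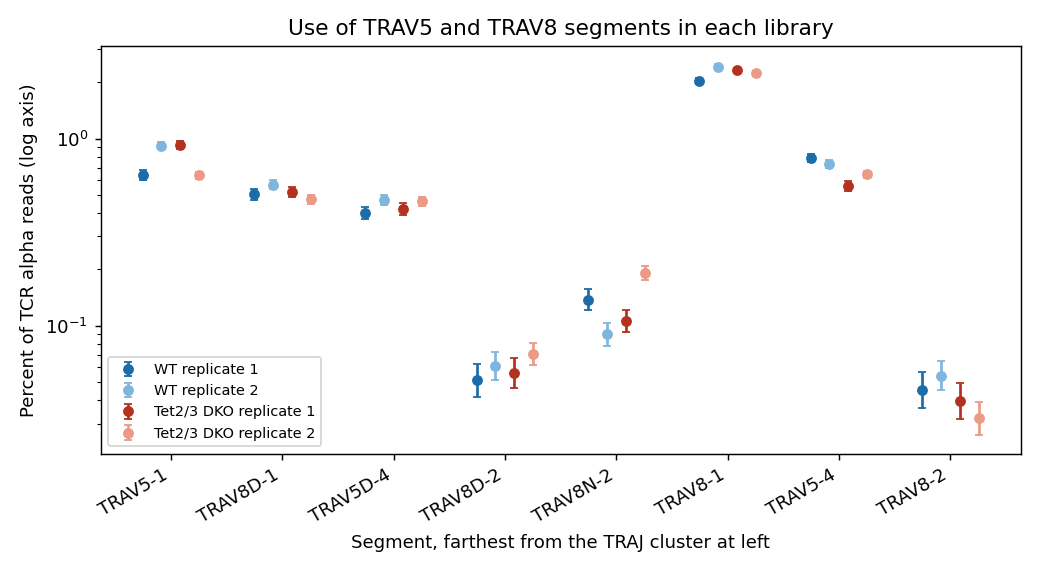
Percent of TCRα reads (log axis) for each TRAV5 and TRAV8 segment in each library, with 95% Wilson intervals for counting error; segments run from the farthest to the nearest to the TRAJ cluster. TRAV8-1 lies above 2% in every library, and TRAV8-2 and TRAV8D-2 lie below 0.1%.

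TRAV8-1 alone made up 73.3% to 76.3% of the reads of its family and was the most used member, with 2.03% and 2.42% of TCRα reads in WT against 2.32% and 2.25% in Tet2/3 DKO. TRAV5-1 followed with 0.638% and 0.917% in WT against 0.926% and 0.637% in Tet2/3 DKO, so that its spread within each genotype was larger than the difference between them. TRAV5-4 held 0.788% and 0.730% in WT against 0.557% and 0.645% in Tet2/3 DKO, a range that overlapped that of TRAV5-1. TRAV8D-1 lay between 0.474% and 0.567% and TRAV5D-4 between 0.402% and 0.467%. The lowest 3 were TRAV8N-2 (0.0901% to 0.191%), TRAV8D-2 (0.0510% to 0.0709%) and TRAV8-2 (0.0320% to 0.0541%), and the ranges of the last pair overlapped. These are shares of 5' RACE reads and were not scaled by transcript length. In such libraries, fewer cells with a segment and less of its RNA per cell cannot be told apart.

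Both TRAV5-4 and TRAV8-2, the copies nearest to the J segments, were lower in both Tet2/3 DKO libraries than in either WT library. Such a separation has an exact permutation p of 0.333 for each, the smallest that 2 libraries per genotype allow. For TRAV5-4 the log2 fold change was -0.34 (SE 0.18) and the adjusted p was 0.972 in edgeR (quasi-likelihood, Benjamini-Hochberg adjusted over 101 segments). For TRAV8-2, with 78 and 117 reads in WT against 77 and 92 in Tet2/3 DKO, it was -0.48 (SE 0.48), again with an adjusted p of 0.972 in edgeR. Neither passed the test. In edgeR 0 of 8 members were called (0 at an unadjusted p under 0.05), against a background of 0% of all segments called (3 of 101 at an unadjusted p under 0.05), and DESeq2 also called 0. The median log2 fold change was 0.02 over the members and -0.01 over all segments. When each clone was counted once, TRAV5-4 made up 0.702% and 0.726% of clones in WT against 0.660% and 0.756% in Tet2/3 DKO, and TRAV8-2 made up 0.0760% and 0.0881% against 0.0846% and 0.0799%, and the groups overlapped for both.

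J use differed most clearly by copy. TRAV5-4 joined J segments with a mean number, weighted by reads, of 42.9 and 43.2 in WT against 42.5 and 42.1 in Tet2/3 DKO. TRAV5D-4, which differs from it at only 6 V bases, had 25.4 and 24.1 in WT against 23.1 and 26.0 in Tet2/3 DKO. The same split was found in TRAV8: TRAV8-2 had 37.1 and 42.8 in WT against 44.5 and 40.5 in Tet2/3 DKO, while TRAV8D-2 had 22.8, 21.1, 19.1 and 15.7 in the same order.

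TRAV5-4 exceeded TRAV5D-4 by 18.01 ± 1.55 J positions (SD, n = 4 libraries) and exceeded TRAV5-1 by 18.7 ± 0.659. TRAV8-2 exceeded TRAV8D-2 by 21.5 ± 5.10 and TRAV8N-2 by 18.4 ± 3.05. Each of these differences had the same sign in 4 of 4 libraries, with an exact two-sided sign-flip p of 0.125, the smallest that 4 libraries allow, and 0.219 after Benjamini-Hochberg adjustment over 14 such contrasts. TRAV8-1 and TRAV8D-1, which lie far apart in the cluster, differed by 0.370 ± 0.304 J positions (SD, n = 4; exact sign-flip p 0.25, adjusted 0.35), weighted by reads. With each clone counted once the order turned, with TRAV8-1 at 27.6 and 27.5 in WT against 27.7 and 26.8 in Tet2/3 DKO, and TRAV8D-1 at 30.1, 27.8, 28.3 and 27.3. TRAV5-1 and TRAV5D-4 differed by -0.731 ± 1.27 (SD, n = 4; exact sign-flip p 0.25, adjusted 0.35).

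**Figure D2:**
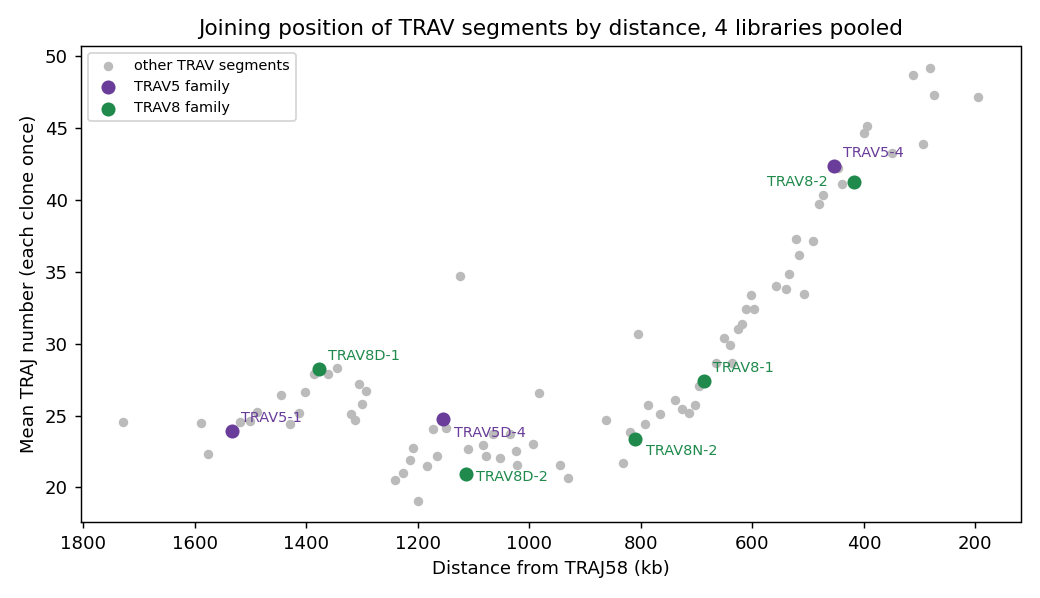
Mean TRAJ number (each clone counted once, 4 libraries pooled) against the distance in kb of each TRAV segment from TRAJ58, for the 88 segments with at least 100 clones; TRAV5 and TRAV8 segments are coloured. TRAV5-4 and TRAV8-2 lie with the segments near the J cluster, and the other 6 members lie lower.

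The members followed the general order of the locus. RefSeq places TRAV8-2 at 418 kb and TRAV5-4 at 453 kb from TRAJ58, TRAV8-1 at 687 kb, TRAV8N-2 at 811 kb, TRAV8D-2 at 1114 kb, TRAV5D-4 at 1155 kb, TRAV8D-1 at 1378 kb and TRAV5-1 at 1534 kb. Among all 88 segments with at least 100 clones, the 15 within 500 kb of TRAJ58 had a median of the mean TRAJ numbers of 43.3 and the 73 beyond had 25.1, and Spearman's rho between distance and mean TRAJ number was -0.69. This is a description across segments, which share libraries and neighbours. The order was not strict, since TRAV8D-1 lay about as far out as TRAV5-1 but had a mean TRAJ number above that of the nearer TRAV8D-2 and TRAV8N-2. TRAV8D-2 used the lowest J numbers of the members, and 3 of the 88 segments were lower still.

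**Figure D3:**
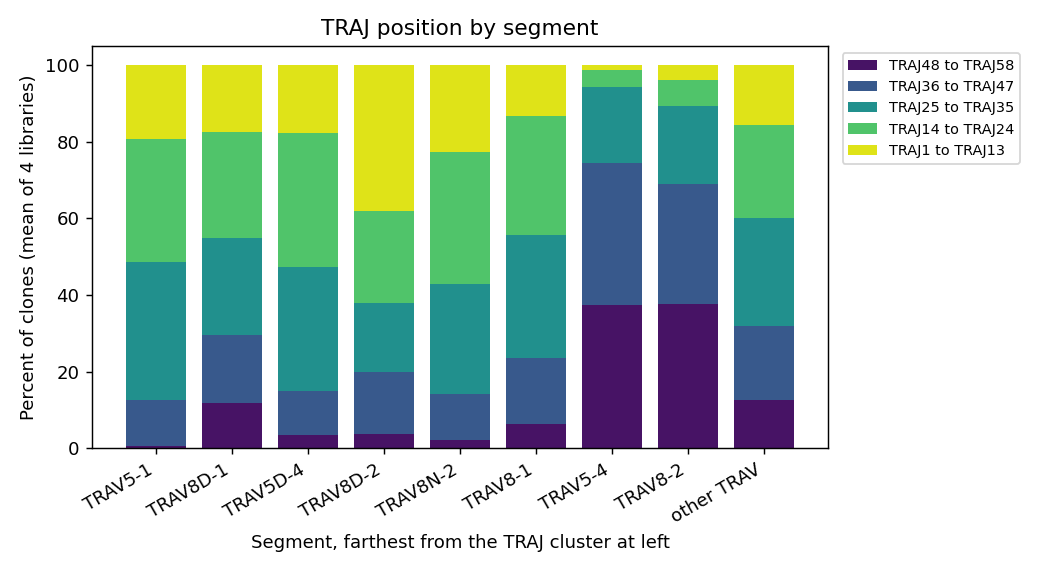
Percent of clones of each segment that use J segments in 5 position ranges (stacked bars, mean of 4 libraries), with all other TRAV segments at right. TRAV5-4 and TRAV8-2 have the largest share in TRAJ48 to TRAJ58, and TRAV8D-2 the largest in TRAJ1 to TRAJ13.

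In TRAV5-4, 39.4% ± 3.29 of reads (SD, n = 4 libraries) used TRAJ48 to TRAJ58 and 1.10% ± 0.659 used TRAJ1 to TRAJ13. In TRAV5D-4 these shares were 2.76% ± 2.11 and 18.3% ± 4.97. In TRAV8-2 they were 38.9% ± 8.11 and 3.90% ± 6.21. In TRAV8D-2, 41.6% ± 7.69 of reads used TRAJ1 to TRAJ13. TRAV8-1, the main copy, was centred on the middle of the J cluster, with 33.3% ± 3.69 of reads in TRAJ25 to TRAJ35 and 32.6% ± 3.76 in TRAJ14 to TRAJ24. The spread between libraries was wide for TRAV8-2 and TRAV8D-2, which few clones carry, and in TRAV8-2 of the first WT library a single TRAJ34 clone held 23.1% of reads.

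By family, TRAV5 used TRAJ31 most (9.84% ± 1.47 of its reads, SD, n = 4), then TRAJ23 (5.37% ± 1.19) and TRAJ27 (4.11% ± 0.674). The other TRAV segments together gave 7.35%, 5.23% and 4.84% for these J segments. TRAV8 used TRAJ27 (7.55% ± 2.31), TRAJ23 (7.41% ± 1.78) and TRAJ31 (7.10% ± 1.74) most on average. By clones, TRAJ27 (5.16% to 5.63%) was below TRAJ23 and TRAJ31 in 4 of 4 libraries. By reads, TRAJ27 was highest in the second Tet2/3 DKO library (10.8%). TRAJ22 exceeded all of these by reads in the second WT library (7.98%) and the first Tet2/3 DKO library (6.55%). In TRAV8, TRAJ27 and TRAJ23 were above the level of the other TRAV segments in 4 of 4 libraries, and in TRAV5 this held for TRAJ31, while TRAJ27 was below it in 4 of 4. Each had an exact sign-flip p of 0.125, the smallest possible, before adjustment over 43 J segments.

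TRAJ24 took 1.28% ± 0.503 of TRAV5 reads and 1.56% ± 0.679 of TRAV8 reads (SD, n = 4), against 1.08% in other TRAV segments. TRAJ18 took 2.77% ± 0.843 of TRAV5 reads and 2.63% ± 0.281 of TRAV8 reads, against 2.28%. TRAJ58, the J segment named here after its values were seen, was used least by TRAV8, with 0.101% ± 0.0258 of reads against 1.24% in other TRAV segments.

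The J profile of TRAV5-1 over 44 J segments was most like those of TRAV1, TRAV14N-3 and TRAV14D-1 among the 40 segments outside both families with at least 1000 reads in each library (Pearson's r 0.90, 0.90 and 0.88, across J segments, means of 4 libraries). Its r was 0.87 with TRAV5D-4 and -0.11 with TRAV5-4. TRAV8-1 was most like TRAV7-5, TRAV1 and TRAV6-5 (r 0.88, 0.87 and 0.86), and its r was 0.76 with TRAV8D-1 and -0.12 with TRAV8-2.

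Between genotypes, the mean TRAJ number of TRAV8 was 27.8 and 28.2 in WT against 27.3 and 25.5 in Tet2/3 DKO, so that both Tet2/3 DKO libraries were lower. The difference of -1.58 had an exact permutation p of 0.333, the smallest that 2 libraries per group allow. Without the second Tet2/3 DKO library it was -0.70, without the first -2.47, and with each clone counted once -0.44. With out-of-frame clones only it was -3.08 (exact permutation p 0.333), and the other TRAV segments differed by 0.14. TRAV5 had 32.8 and 30.5 in WT against 29.0 and 31.0 in Tet2/3 DKO, and the groups overlapped (difference -1.68, exact permutation p 0.667). Without the first or the second WT library this difference was -0.54 or -2.83, and without the first or the second Tet2/3 DKO library -0.65 or -2.72. In all other TRAV segments the WT mean was 29.1 ± 0.195 and the Tet2/3 DKO mean 29.1 ± 0.117 (SD, n = 2 each). With each clone counted once, both Tet2/3 DKO libraries were below both WT libraries in TRAV8, in TRAV5 (difference -0.61) and in all other TRAV segments (difference -0.35), so that a lower mean by clones was not particular to TRAV8. The TRAV8 means by clones were 27.653 and 27.642 in WT against 27.635 and 26.778 in Tet2/3 DKO. Their difference thus lay almost wholly in the second Tet2/3 DKO library.

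A few large TRAV8 clones stood out in the second Tet2/3 DKO library. There the 10 largest TRAV8 clones held 23.3% of the reads of the family, against 8.16% to 11.7% in the other libraries. The largest, TRAV8-1 joined to TRAJ27, held 527 reads or 6.07% of TRAV8 reads, followed by TRAV8-1 with TRAJ21 at 299 reads and an out-of-frame TRAV8-1 clone with TRAJ23 at 251 reads. The J number of the largest clone lies above the TRAV8 mean of 25.5 in this library. Those of the clones with TRAJ21 and TRAJ23 lie below it. TRAJ21 took 9.09% of TRAV8 reads in this library and 2.85% to 3.81% in the others, but 4.73% of its TRAV8 clones against 3.26% to 4.29%. TRAJ27 took 10.8% of TRAV8 reads there and 5.59% of clones, which lies within the 5.16% to 5.63% of clones in the other libraries. By clones, TRAJ23, TRAJ31 and TRAJ22 were highest in this library, at 9.04% against 6.30% to 7.32%, 7.56% against 5.71% to 7.19% and 6.52% against 4.78% to 5.83% of TRAV8 clones. The part of these clones in the genotype difference was not tested. The CDR3 of the largest TRAV8 clone of each library is printed because these clones weigh most in the read shares, with capitals for bases between the V and J segments.
TRAV8D-1 TRAJ27, first WT library, 92 reads: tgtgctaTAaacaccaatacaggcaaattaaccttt
TRAV8-1 TRAJ45, second WT library, 93 reads: tgtgctactgatgcagatagactcaccttt
TRAV8-1 TRAJ26, first Tet2/3 DKO library, 145 reads: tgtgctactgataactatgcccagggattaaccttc
TRAV8-1 TRAJ27, second Tet2/3 DKO library, 527 reads: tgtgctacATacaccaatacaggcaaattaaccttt

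The largest TRAV5 clones were smaller, at 137, 141, 62 and 101 reads in the same order of libraries (4.35%, 3.08%, 1.67% and 2.01% of TRAV5 reads). They used TRAV5-4 with TRAJ49 and TRAV5-4 with TRAJ39 in WT, and TRAV5D-4 with TRAJ7 and TRAV5D-4 with TRAJ31 in Tet2/3 DKO. All 8 of the largest clones were in frame.

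Taken as a family, TRAV8 had shorter CDR3s than other TRAV segments, in both genotypes alike. Weighted by reads, the CDR3 of in-frame TRAV8 clones without a stop codon averaged 12.7 and 12.8 amino acids in WT against 12.8 and 12.7 in Tet2/3 DKO, against 13.4 to 13.5 in other TRAV segments. The difference from other TRAV segments was -0.70 ± 0.068 amino acids (SD, n = 4), negative in 4 of 4 libraries, with an exact sign-flip p of 0.125. By reads, the less used TRAV8D-2 and TRAV8-2 departed from this, with differences of 0.04 ± 0.455 (exact sign-flip p 1) and -0.27 ± 0.398 (exact sign-flip p 0.25). With each clone counted once, TRAV8-2 lay close to the family, at -0.59 ± 0.310 against -0.63 ± 0.047 (exact sign-flip p 0.125 each). TRAV8D-2 then stood at -0.16 ± 0.165 (exact sign-flip p 0.25). A length of 12 amino acids took 29.6% of in-frame TRAV8 reads and 14.7% of those of other TRAV segments, and a length of 15 took 4.53% and 12.04%. TRAV5 was closer, with 13.2 in each WT library, 13.1 and 13.2 in Tet2/3 DKO, and a difference of -0.25 ± 0.058 (SD, n = 4; exact sign-flip p 0.125).

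The V ends of TRAV8 were trimmed more. In-frame TRAV8 clones had lost on average 3.44 and 3.38 V bases in WT against 3.22 and 3.32 in Tet2/3 DKO, TRAV5 clones 1.93, 1.97, 1.95 and 1.70 in the same order, and clones of other TRAV segments 2.07 to 2.16. The excess over other TRAV segments was 1.21 ± 0.0821 bases for TRAV8 (SD, n = 4; exact sign-flip p 0.125). An untrimmed V end was found in 16.6% to 19.1% of in-frame TRAV8 clones, in 32.9% to 40.1% of TRAV5 clones and in 34.1% to 35.2% of the others. Bases inserted between V and J averaged 2.09 ± 0.036 per in-frame TRAV8 clone and 2.17 ± 0.074 per TRAV5 clone (SD, n = 4), against 2.26 ± 0.016. TRAV8D-2, whose V end carries the different base, had lost 2.71 ± 0.302 V bases on average (SD, n = 4). The copies that end alike differed among themselves, with 3.28 ± 0.0980 for TRAV8-1, 3.47 ± 0.0797 for TRAV8N-2, 3.56 ± 0.165 for TRAV8D-1 and 4.05 ± 0.285 for TRAV8-2. Whether the different base bears on trimming was not tested.

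At the family level, genotype differences in CDR3 length were small and changed sign with the weighting. For TRAV8 the difference of Tet2/3 DKO from WT was -0.008 amino acids by reads (exact permutation p 1) and 0.08 by clones (exact permutation p 0.333). For TRAV5 it was -0.03 by reads (exact permutation p 0.667) and 0.04 by clones (exact permutation p 0.333). With each library left out in turn, the TRAV5 difference by reads ran from -0.063 (without the second Tet2/3 DKO library) to -0.0037 (without the first). The other TRAV segments differed by 0.067 by reads and 0.069 by clones, without overlap of the genotypes. Among the copies, TRAV8N-2 was longer in Tet2/3 DKO by 0.40 by reads and 0.18 by clones, and TRAV8D-1 by 0.31 and 0.12, again without overlap and with an exact permutation p of 0.333 each, the smallest possible. By reads, TRAV8D-1 averaged 12.49 and 12.61 in WT against 12.70 and 13.02 in Tet2/3 DKO. In the second Tet2/3 DKO library a TRAJ13 clone held 15.8% of TRAV8D-1 reads. TRAV5-1 was longer without overlap by reads (0.09, exact permutation p 0.333) but overlapped by clones (0.09, exact permutation p 0.667). TRAV8-1, the main copy, was shorter by reads without overlap (difference -0.11, exact permutation p 0.333) but not by clones (0.06, exact permutation p 0.667). By reads it averaged 12.772 and 12.761 in WT against 12.757 and 12.546 in Tet2/3 DKO. The difference thus lay mainly in the second Tet2/3 DKO library.

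TRAV8-2 differed from every other member in reading frame. Of its clones with a CDR3, 11 of 30 and 16 of 42 in WT and 17 of 40 and 15 of 43 in Tet2/3 DKO were in frame without a stop codon, that is 36.7%, 38.1%, 42.5% and 34.9%, with 95% intervals that together span 21.9% to 57.8%. Across the other 7 members and 4 libraries this share ran from 79.6% to 94.7%, so that no library of any other member reached as low. The difference of TRAV8-2 was -54.1 ± 3.51 percentage points from TRAV8N-2 and -47.8 ± 7.20 from TRAV8D-2 (SD, n = 4), with the same sign in 4 of 4 libraries and an exact sign-flip p of 0.125 each (0.219 adjusted over 14 contrasts).

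**Figure D4:**
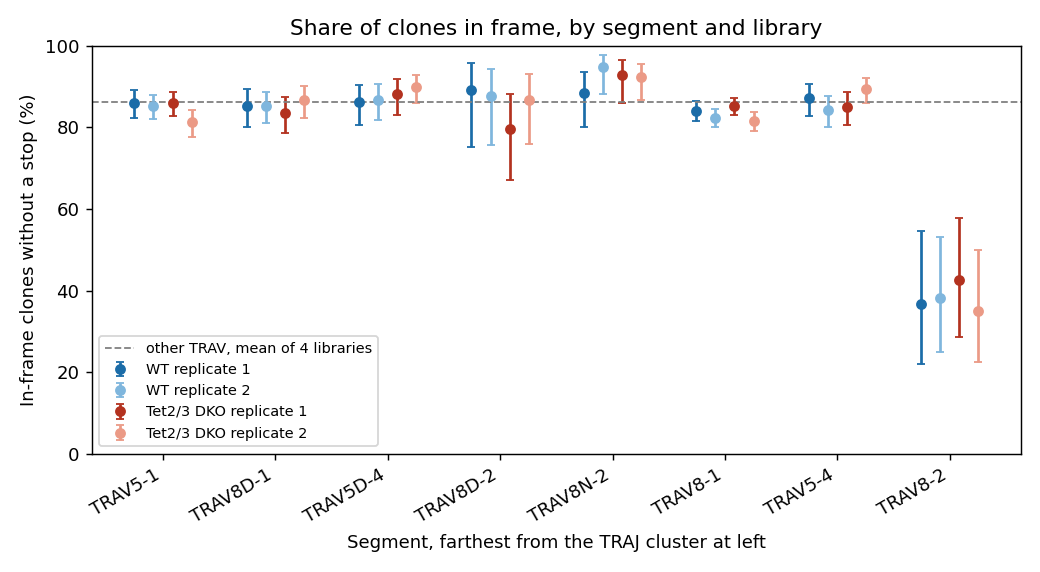
Percent of clones with a CDR3 that are in frame and without a stop codon, for each segment and library, with 95% Wilson intervals; the dashed line is the mean of all other TRAV segments (86.2%). TRAV8-2 lies between 34.9% and 42.5% in the 4 libraries, below every other member.

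The V part of TRAV8-2 itself held 0 stop codons over 88 codons, as did the V parts of the other members, and RefSeq lists it as a V segment rather than a pseudogene. Its non-productive clones were out of frame, apart from 1 in the second WT library that was in frame but held a stop codon. Among the 87 TRAV segments with at least 100 clones with a CDR3, the median share in frame was 85.5%, and TRAV8-2, at 38.1% pooled, was the fourth lowest. The lower ones were TRAV4D-2 (23.9%), TRAV11N (31.1%) and TRAV20 (33.2%), of which TRAV4D-2 and TRAV20 are V pseudogenes in RefSeq. The copies numbered 2 share most of the V part but not the frame pattern. From TRAV8-2, TRAV8N-2 differs at 4 bases of FR2, the framework stretch between CDR1 and CDR2, and TRAV8D-2 at 10. In FR3, the stretch between CDR2 and CDR3, they differ at 10 and 3 bases. No link of these bases to the reading frame was tested. The FR2 is printed as an example, with capitals where a base differs from TRAV8-2.
TRAV8-2: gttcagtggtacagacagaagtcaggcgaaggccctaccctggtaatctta
TRAV8N-2: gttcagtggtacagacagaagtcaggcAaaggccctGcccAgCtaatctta
TRAV8D-2: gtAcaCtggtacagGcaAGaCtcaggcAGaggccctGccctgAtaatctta

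Among the members, TRAV8N-2 had the highest mean share by clones (92.1%), although in the first WT library it was below TRAV8D-2 (88.5% against 89.2%). It had 77 of 87, 90 of 95, 91 of 98 and 133 of 144 clones in frame. Its share by clones exceeded that of other TRAV segments by 5.94 ± 2.30 percentage points (SD, n = 4; exact sign-flip p 0.125).

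At the family level, weighted by reads, 87.5% and 86.5% of TRAV8 reads in WT against 86.5% and 83.7% in Tet2/3 DKO were in frame (difference -1.90 percentage points, exact permutation p 0.333), and 90.3%, 88.4%, 86.5% and 89.2% of TRAV5 reads (difference -1.54, exact permutation p 0.667). With each library left out in turn, the TRAV8 difference ran from -3.33 (without the first Tet2/3 DKO library) to -0.479 (without the second), and the TRAV5 difference from -2.89 (without the second Tet2/3 DKO library) to -0.177 (without the first). By clones the genotype differences were 0.09 percentage points for TRAV8 and 0.21 for TRAV5 (exact permutation p 1 each), so that the lower read shares in Tet2/3 DKO were not found when each clone counted once. Against other TRAV segments, TRAV8 was lower by reads in 4 of 4 libraries, by -3.67 ± 1.85 percentage points (SD, n = 4; exact sign-flip p 0.125), and TRAV5 differed by -1.09 ± 1.44 (exact sign-flip p 0.25). The TRAV5 value was -1.68 without the first WT library, -0.528 without the first Tet2/3 DKO library and -0.178 with each clone counted once.

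The study transferred Tet2/3 DKO CD4 cells into recipient mice, and TRAV5-4 with TRAJ24 and TRAV8N-2 with TRAJ18 were dominant V-J pairs among transferred cells. Data from transferred cells were not used here, and the question is how these pairs stood in spleens of young mice. Both pairs were rare. TRAV8N-2 with TRAJ18 had 7 and 9 reads in WT against 24 and 69 in Tet2/3 DKO, and TRAV5-4 with TRAJ24 had 0 and 2 reads in WT against 2 and 25 in Tet2/3 DKO. TRAV8N-2 with TRAJ18 had 4 and 2 clones in WT against 9 and 12 in Tet2/3 DKO, and TRAV5-4 with TRAJ24 had 0, 1, 1 and 2.

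TRAV8N-2 with TRAJ18 made up 0.00406% and 0.00416% of TCRα reads in WT against 0.0123% and 0.0240% in Tet2/3 DKO, and both Tet2/3 DKO libraries were above both WT libraries. Their intervals were 0.00197% to 0.00838% and 0.00219% to 0.00790% in WT against 0.00827% to 0.0183% and 0.0189% to 0.0303% in Tet2/3 DKO. Group means stood at a log2 ratio of 2.14 (exact permutation p 0.333, the smallest possible). In edgeR over 3087 V-J pairs the log2 fold change was 2.13 and the adjusted p 0.987, with an unadjusted p of 0.0220. Over pooled reads the ratio was 4.68 (exact interval for counting error 2.74 to 8.53). Without the second Tet2/3 DKO library the log2 ratio of means was 1.58.

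As a share of the reads of TRAV8N-2, TRAJ18 took 2.94% and 4.62% in WT against 11.5% and 12.6% in Tet2/3 DKO. The values did not come from 1 clone, since 4 and 2 distinct in-frame CDR3 sequences were found in WT against 7 and 8 in Tet2/3 DKO, and the largest clones held 3, 7, 10 and 19 reads. By clones, TRAJ18 took 4.598% and 2.11% of TRAV8N-2 clones in WT against 9.18% and 8.28% in Tet2/3 DKO. The pattern did not extend to the other main copies: TRAV8-1 with TRAJ18 took 2.94% and 3.15% of TRAV8-1 reads in WT against 2.27% and 1.61% in Tet2/3 DKO, and TRAV8D-1 with TRAJ18 took 1.61%, 2.28%, 1.88% and 1.17%. TRAV8D-2 had 0 and 7 TRAJ18 reads in WT against 4 and 16 in Tet2/3 DKO, and TRAV8-2 had 1, 0, 0 and 0. Whether TRAV8N-2 differed from these copies in its genotype difference was not tested. TRAJ18 over all other TRAV segments was 2.28% and 2.14% of TCRα reads in WT against 2.15% and 2.08% in Tet2/3 DKO.

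**Figure D5:**
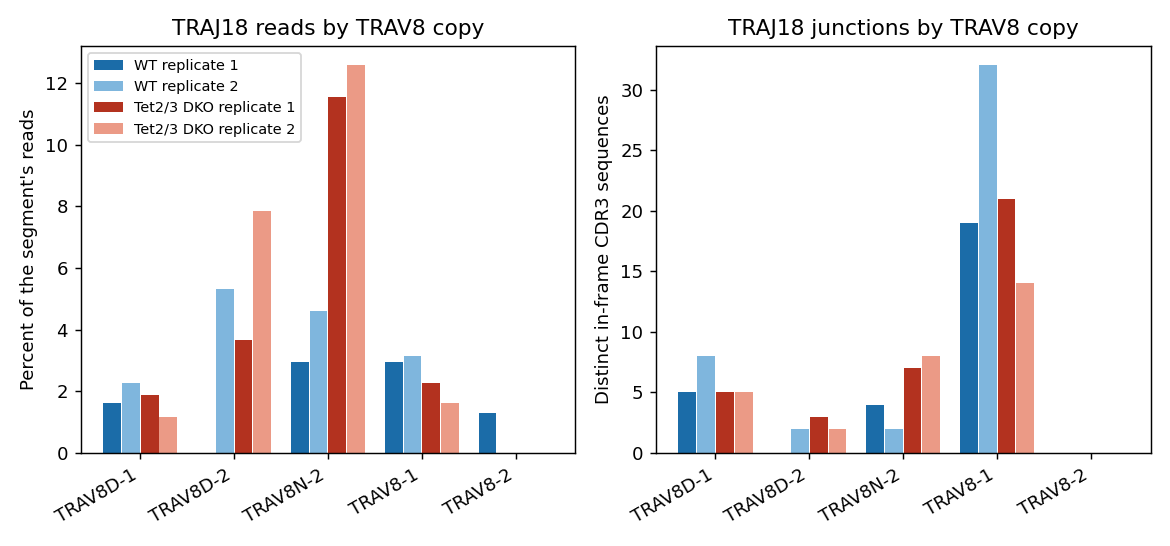
TRAJ18 in the 5 TRAV8 copies, as the percent of each copy's reads (left) and the number of distinct in-frame CDR3 nucleotide sequences (right), for each library. In TRAV8N-2 both Tet2/3 DKO bars (11.5% and 12.6%) stand above both WT bars, and in TRAV8-1 they stand below.

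The 19 distinct in-frame CDR3 sequences of TRAV8N-2 with TRAJ18 show how these junctions vary. Of them 10 had 0 bases between V and J, and their lengths ran from 12 to 16 amino acids. One sequence was found in 3 libraries (7 reads in the second WT library, 10 and 2 in the Tet2/3 DKO libraries), and 2 sequences that each differ from it at 1 base, in adjacent codons, encode the same amino acids, so that this protein junction was found in all 4 libraries. These are followed by the 3 most abundant in-frame sequences of the second Tet2/3 DKO library, of which the last sums 3 clones, with capitals for bases between V and J.
Found in 3 libraries: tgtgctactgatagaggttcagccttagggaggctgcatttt
First WT library, 3 reads: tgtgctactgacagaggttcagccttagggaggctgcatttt
First Tet2/3 DKO library, 3 reads: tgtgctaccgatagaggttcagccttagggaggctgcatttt
Second Tet2/3 DKO library, 19 reads: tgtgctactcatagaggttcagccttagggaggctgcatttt
Second Tet2/3 DKO library, 18 reads: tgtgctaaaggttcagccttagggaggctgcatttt
Second Tet2/3 DKO library, 13 reads: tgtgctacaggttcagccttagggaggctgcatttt

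The sequence found in 3 libraries was also carried by other TRAV8 copies that end alike. TRAV8D-1 carried it in both WT libraries (6 and 9 reads) and TRAV8-1 in the second WT library (7 reads) and in both Tet2/3 DKO libraries (1 and 23 reads). It was thus not particular to TRAV8N-2 or to a genotype in these libraries.

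TRAV5-4 with TRAJ24 was near the limit of detection. The 0 reads of the first WT library allow a share of up to 0.00174% of TCRα reads (3 reads of the total, in place of a Wilson interval), and the second WT library had 0.000924% (0.000253% to 0.00337%). In Tet2/3 DKO the shares were 0.00103% (0.000281% to 0.00374%) and 0.00869% (0.00588% to 0.0128%). With the 0 taken as it stands the genotypes did not overlap, but the limit of the first WT library lies above the share of the first Tet2/3 DKO library. The first Tet2/3 DKO library and the second WT library had 2 reads each and could not be told apart at this depth. The ratio of pooled reads was 10.9 with an exact interval for counting error of 2.73 to 94.4, and the exact permutation p for the difference was 0.333. In edgeR the adjusted p was 0.990. A single clone with 23 reads in the second Tet2/3 DKO library carried most of the signal, and without that library the log2 ratio of means fell from 3.39 to 1.15. Both ratios count the first WT library as 0 and would be lower at its limit of 0.00174%.

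All 4 in-frame CDR3 sequences of this pair are printed because none recurred, in contrast to TRAV8N-2 with TRAJ18. In each, the clone caller placed bases between V and J (capitals). These capitals end in GACAAC in the sequences of the second WT and the first Tet2/3 DKO library, and in AC in all 4. Whether some of them are J germline bases was not tested.
Second WT library, 2 reads: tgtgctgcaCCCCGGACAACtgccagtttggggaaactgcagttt
First Tet2/3 DKO library, 2 reads: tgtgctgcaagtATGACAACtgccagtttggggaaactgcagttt
Second Tet2/3 DKO library, 23 reads: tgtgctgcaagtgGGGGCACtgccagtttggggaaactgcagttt
Second Tet2/3 DKO library, 2 reads: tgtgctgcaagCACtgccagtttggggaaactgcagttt

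The upstream copies were joined to TRAJ24 as well. TRAV5D-4 with TRAJ24 had 22 and 23 reads in WT against 3 and 64 in Tet2/3 DKO, in 2, 8, 1 and 5 clones, and TRAV5-1 with TRAJ24 had 4, 37, 31 and 9 reads in 1, 9, 9 and 4 clones. The genotypes overlapped for both, and the order of the copies differed between libraries. Over all other TRAV segments, TRAJ24 held 0.880% and 0.843% of TCRα reads in WT against 1.26% and 1.15% in Tet2/3 DKO, again without overlap. TRAV5-4 reads fell mostly in J segments above TRAJ24, as given above, and TRAJ14 to TRAJ24 together took 2.35% and 2.66% of them in WT against 1.93% and 10.7% in Tet2/3 DKO. In TRAV5D-4 this share was 35.2% ± 4.44 (SD, n = 4).

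Over all V-J pairs, edgeR called 0 of 247 member pairs (15 at an unadjusted p under 0.05), against a background of 0% of 3087 pairs (147 at an unadjusted p under 0.05). DESeq2 called 0 member pairs and 11 pairs in all. The median log2 fold change was -0.05 over the member pairs and -0.05 over all pairs. No pair therefore entered the text for its size of change.

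Some junctions recurred between mice, mostly those with few inserted bases. Of 4151 distinct in-frame TRAV8 sequences (V, J and CDR3 nucleotides), 17 were found in all 4 libraries, 55 in 3 and 266 in 2, and of 3064 TRAV5 sequences 5, 30 and 202. The share without inserted bases was 24.3% among TRAV8 sequences of 1 library and 76.5% among those of all 4, and 19.8% and 80.0% in TRAV5. Inserted bases averaged 2.37 in TRAV8 sequences of 1 library and 0.294 in those of all 4. The most abundant sequences found in all 4 libraries are shown for each family because they give the junction that recurred most, and in each V runs directly into J.
TRAV8-1 TRAJ27: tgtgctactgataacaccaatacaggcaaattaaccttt
TRAV8-1 TRAJ22: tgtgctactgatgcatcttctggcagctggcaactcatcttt
TRAV5D-4 TRAJ22: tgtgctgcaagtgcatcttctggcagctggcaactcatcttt
TRAV5D-4 TRAJ13: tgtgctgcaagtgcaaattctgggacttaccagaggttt

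Of these sequences, the one of TRAV8-1 and TRAJ27 had 19 and 30 reads in WT against 38 and 53 in Tet2/3 DKO, and the one of TRAV8-1 and TRAJ22 had 29, 32, 40 and 37. The sequence of TRAV5D-4 and TRAJ22 had 18, 20, 28 and 44 reads and that of TRAV5D-4 and TRAJ13 had 1, 21, 21 and 31. These are read counts of single CDR3 sequences, not of whole V-J pairs, and are not scaled to depth, and no test was made on sequences chosen for recurring.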

How the data were processed

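Total RNA of 2 WT and 2 Tet2/3 DKO splenic CD4 T cell samples was made into 5' RACE TCR libraries. The authors processed reads with bcl2fastq 2.20.0 and fastp 0.21.0 (per the labels, with build mm10) and assembled clones with MiXCR 4.7.0 using its preset for this kit. The authors deposited, for each TCRα clone, the count of reads and its fraction of TCRα reads; the fraction served to check the counts, and equalled each count over the total. TCRβ tables were not used here.

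The members and gene lists were chosen with earlier results of these data known. V and J were the segments listed first, without allele. A clone without a covered CDR3 (0.401% to 1.54% of member reads) stayed in shares and was left out of CDR3 measures. In frame means a CDR3 without frameshift or stop codon; palindromic bases were counted with their segment. Usage was tested with edgeR 4.0.16 (quasi-likelihood, R 4.3.3) on reads per segment or V-J pair with at least 10 reads in total, scaled by all TCRα reads, Benjamini-Hochberg adjusted, threshold 0.05, and with DESeq2 1.42.0 as an alternative; the test was tested on simulated data. Single values were compared by exact permutation of genotype labels and, between segments, by exact sign-flip over libraries (Python 3.11.15, numpy 2.4.6, pandas 2.3.3, scipy 1.17.1). Coordinates and biotypes are RefSeq's for GRCm38.p6. The text names every member segment, the 3 most used J segments per family with TRAJ24 and TRAJ18, both transfer-dominant pairs with the same J on other copies, called pairs, the most abundant clones, recurrent CDR3s of the pairs and the 3 segments of most similar J profile. Other J segments, the lowest in-frame segments and the sequences shared by all libraries were picked once their values were known. The depth was 172506 to 287799 TCRα reads per library.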

Additional observations from a re-analysis of the deposited data

How the results depend on the processing

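Of 174 values recomputed under other settings for 18 results, 162 kept their direction or count. Some of these values could not have changed. Splitting or leaving out ties moved no family value, because 0 member clones tied with a segment outside their family. Leaving out the 10 most abundant clones of each library removed no member clone, since the highest ranked member stood at rank 13. Genotype differences within a family were therefore the same under that setting. Counting each clone once turned the genotype difference in CDR3 length to 0.039 amino acids for TRAV5 and 0.080 for TRAV8, in the in-frame share to 0.213 and 0.0872 percentage points, and the log2 ratio of the TRAV8 share to -0.0729. Counting each distinct V, J and CDR3 sequence once gave 0.041 and 0.066 amino acids, and in-frame clones only gave a log2 ratio of the TRAV8 share of -0.0046. With each library left out in turn, this ratio ran from -0.0764 (without the first WT library) to 0.129, and the TRAV8 difference in CDR3 length from -0.0449 to 0.0288 (positive without the second WT or the second Tet2/3 DKO library). The log2 ratio of the TRAV5 share ran from -0.212 (without the first WT library) to -0.0025 (without the second WT library). With each clone counted once it was -0.0073. Without a filter on low V-J pairs, edgeR called 3 of 315 member pairs (1 higher and 2 lower in Tet2/3 DKO) rather than 0, against 1.34% of all pairs (50 of 3729). Without the first Tet2/3 DKO library it called 4 of 101 segments and 18 of 2919 pairs, with 0 members among them. The cause was not tested. With each library left out in turn, the log2 ratio ran from 1.58 to 2.55 for TRAV8N-2 with TRAJ18 (1.54 with each clone counted once) and from 1.15 to 4.23 for TRAV5-4 with TRAJ24, for which no value could be given without the second WT library or with the block. Both ends of the TRAV5-4 range count the first WT library, without reads of this pair, as 0.

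Labels give both genotypes replicate numbers 1 and 2, but do not say that a number marks shared mice or days. Deviations of same-numbered libraries over 101 segments correlated at r = 0.09. With the replicate number as a block, edgeR called 0 members and 0 member pairs, and the log2 ratio was -0.11 for the TRAV5 share, 0.03 for the TRAV8 share and 2.06 for TRAV8N-2 with TRAJ18. Depth limits mainly TRAV8-2, TRAV8D-2 and both rare pairs.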

Other observations

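A short form of the V part recurred in TRAV8-1 and TRAV8D-1. In 14 of 4069 TRAV8-1 clones and 18 of 1117 TRAV8D-1 clones the sequence began exactly at base 100 of the V part, without FR1, CDR1 and the start of FR2. These clones were found in all 4 libraries for both copies. TRAV8D-1 had them in 2.59% and 1.88% of clones in WT against 1.10% and 1.03% in Tet2/3 DKO, and TRAV8-1 in 0.363% and 0.176% in WT against 0.490% and 0.369% in Tet2/3 DKO. TRAV8D-1 was higher in 4 of 4 libraries, by 1.30 ± 0.796 percentage points (SD, n = 4; exact sign-flip p 0.125). This contrast was made on the clones in which the pattern was noticed, so its p is not an independent test. No clone of the other 6 members began at this base. The upper 95% Wilson limit of this 0 was 2.42% for TRAV8-2 (155 clones) and 1.88% for TRAV8D-2 (200 clones), both above the 1.61% of TRAV8D-1 clones, so that these copies have too few clones to show a lower share. It was 0.898% for TRAV8N-2, 0.417% for TRAV5D-4, 0.287% for TRAV5-4 and 0.195% for TRAV5-1, of which those of TRAV8N-2 and TRAV5D-4 lie above the 0.344% of TRAV8-1 clones. The bases around this start are the same in both copies and are shown with the last bases missing from the short form, an AG, in capitals.
TRAV8-1 and TRAV8D-1: gccctacAGtggtacagacagaagt

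The copies differ from each other at T22C, C23T and A121G (TRAV8-1 base, position from the start of FR1, TRAV8D-1 base), so that only the last of these lies within the short form. This pattern was noticed in the data, and no explanation of it was tested.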
